A study of Mus musculus with 42 samples.

Results

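The comparison described here set the libraries taken 18 h and 24 h after differentiation was induced against those taken at 36 h and 42 h, in mouse embryonic stem cells that were turning into embryoid bodies. Members were all libraries carrying these time labels, 4 in each period, which made 8 of the 42 libraries of the series, and all 14296 genes in the files were tested. Every group was W9.5, an embryonic stem cell line labelled with the strain background 129X1/SvJ, at low passage and differentiating without direction, and the groups differed in time alone. No gene was altered and no agent distinguished the groups. The study describes withdrawal of LIF, the cytokine that keeps such cultures undifferentiated, as the start of the course. At each time there was 1 library of polyadenylated RNA from culture A and 1 from culture B, the biological duplicates. A single line in 2 cultures was therefore sampled, the cells of an embryoid body are mixed, and in bulk RNA fewer cells of a type and less RNA per cell cannot be told apart. The labels call all 8 samples embryonic stem cells. Pou5f1 and Sox2, transcription factors that define pluripotent cells, were at 10.13 or more and 8.58 or more log2 CPM (read counts scaled to library size) in each of the 8, while the fibroblast collagen gene Col1a1 stayed between -0.56 and 0.21. Of 11 fibroblast markers measured, 5 were under 0 log2 CPM in all 8. Others were higher, with means at 18 h and 24 h of 3.41 for Col5a1, 2.87 for Thy1 and 2.59 for Pdgfrb. At 36 h and 42 h these means were 3.07, 2.25 and 1.52.

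Naive pluripotency, the state of the preimplantation epiblast, is held by a circuit of transcription factors such as Klf4, Tbx3, Esrrb, Tfcp2l1 and Nanog that LIF and BMP signals sustain. When these signals are withdrawn the cells pass into a formative state, in which Pou5f1 and Sox2 are kept, the naive factors are lost, and genes of the postimplantation epiblast such as Fgf5, Otx2, Pou3f1 and the de novo DNA methyltransferases come on. Formative cells are those able to respond to the Nodal, Wnt and BMP signals that later give the primitive streak and the neural and endodermal lineages.

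Promoter windows of 3 genes are printed because their transcripts moved apart in this interval while the RNA for Pou5f1, a POU factor, was level. The RNA for Pou3f1, also a POU factor, was not level and rose by 1.66 on the log2 scale. Fgf5 (window chr5:98253934-98254233, plus strand) and Pim2 (chrX:7878056-7878355, plus strand) rose and Zfp42 (chr8:43306960-43307259, minus strand) fell. Each runs from 250 bases before to 50 bases after the start site as RefSeq gives it on GRCm38.p6. Capitals mark the octamer ATTTGCAT, the sequence bound by POU factors, wherever it was found on either strand (ATGCAAAT is the same site read from the other strand).
Fgf5: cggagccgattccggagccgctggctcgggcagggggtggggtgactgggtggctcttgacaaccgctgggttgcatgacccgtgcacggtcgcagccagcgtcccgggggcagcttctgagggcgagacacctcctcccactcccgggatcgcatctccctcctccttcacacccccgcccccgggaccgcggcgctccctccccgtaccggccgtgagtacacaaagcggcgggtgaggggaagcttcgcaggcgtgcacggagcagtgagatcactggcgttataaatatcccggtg
Pim2: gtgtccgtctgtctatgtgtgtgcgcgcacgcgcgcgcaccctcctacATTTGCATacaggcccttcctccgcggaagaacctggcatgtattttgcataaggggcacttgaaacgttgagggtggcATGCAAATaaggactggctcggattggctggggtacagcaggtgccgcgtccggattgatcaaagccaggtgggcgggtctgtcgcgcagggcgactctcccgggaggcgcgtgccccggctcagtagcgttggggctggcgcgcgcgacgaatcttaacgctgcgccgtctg
Zfp42: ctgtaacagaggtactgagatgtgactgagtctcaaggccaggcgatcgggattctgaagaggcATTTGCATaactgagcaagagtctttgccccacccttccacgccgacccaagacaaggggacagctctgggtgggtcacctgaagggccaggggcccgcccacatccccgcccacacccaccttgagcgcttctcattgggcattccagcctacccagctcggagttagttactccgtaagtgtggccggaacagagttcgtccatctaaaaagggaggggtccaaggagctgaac
The octamer began 202 and 123 bases before the start site of Pim2 and 186 bases before that of Zfp42, and these letters did not occur in the Fgf5 window. Of all 32851 windows of this length in the table, 570 held it, or 1.74%. A match is a description of the letters only. Windows were at hand for 74.7% of the genes tested and 73.8% of those called below, under the 80% needed, so that no comparison of motifs or base composition over the whole gene sets was made.

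The 8 libraries held between 19419511 and 36793895 counted reads, so that 3 reads, about the limit that a count of 0 allows, corresponded to between 0.084 and 0.156 CPM. Both libraries at 30 h, which lies between the periods and entered no period, held 30410439 (A) and 10120972 (B) reads. Duplicates differed by more than sampling of reads, with a chi-square per degree of freedom of 7.64 for the pair taken at 24 h, 12.27 for 36 h, 16.68 for 18 h and 89.52 for 42 h. The pair at 42 h was thus the furthest apart. Against culture A at this time, genes in culture B differed by a median of 0.237 log2 in the tertile with the shortest summed exons and by -0.25 in the tertile with the longest, where the other 3 pairs of duplicates lay between -0.034 and 0.047 in every tertile. Genes for cytosolic ribosomal proteins were 0.682 higher in it (median of 71 genes), and their summed level was 16.55 log2 CPM in 42 h B and between 15.69 and 15.99 in the other 7 libraries. By this measure it was 42 h B that stood apart among the 8. The pairs at 30 h and 48 h, outside the periods, leaned the same way by less. Culture B differed there by 0.075 and 0.075 in the shortest tertile and by -0.128 and -0.102 in the longest. Ribosomal protein genes were 0.26 and 0.223 higher in culture B at these times. Counts of gene list members are given without it where they differ. The scaling factors of the 8 libraries were 0.9639 to 0.9917 in the early and 0.8835 to 0.9261 in the late period.

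Expression drifted in both directions between the periods. At the threshold used by the study for this series, an adjusted p under 0.0001, 1594 genes were called, 11.1% of those tested. Of these 843 rose (5.90%) and 751 fell (5.25%). In log2 units the median called rise was 1.01 (range 0.32 to 4.40) and the median called fall -1.04 (range -0.32 to -4.27), with a median standard error (SE) of 0.13. Over all genes the median change was 0.034. A change of at least 2-fold was seen for 427 of the genes that rose and 395 of those that fell. The SE comes from a single limma fit to all 42 libraries, in which the spread between duplicates at the 21 time points is shared, and each period is the mean of 2 time points in 2 cultures. Fitted to the 8 libraries alone, where the drift within each period counts as error, limma called 0 genes at this threshold, 4105 at an adjusted p under 0.05, and 1593 of the 1594 genes above were among these. Scaled by all counted reads instead of the deposited factors, the median of all genes moved by -0.108, and 560 genes rose and 1028 fell, so that 35.3% of the calls were rises where the deposited scaling gave 52.9%.

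**Figure D1:**
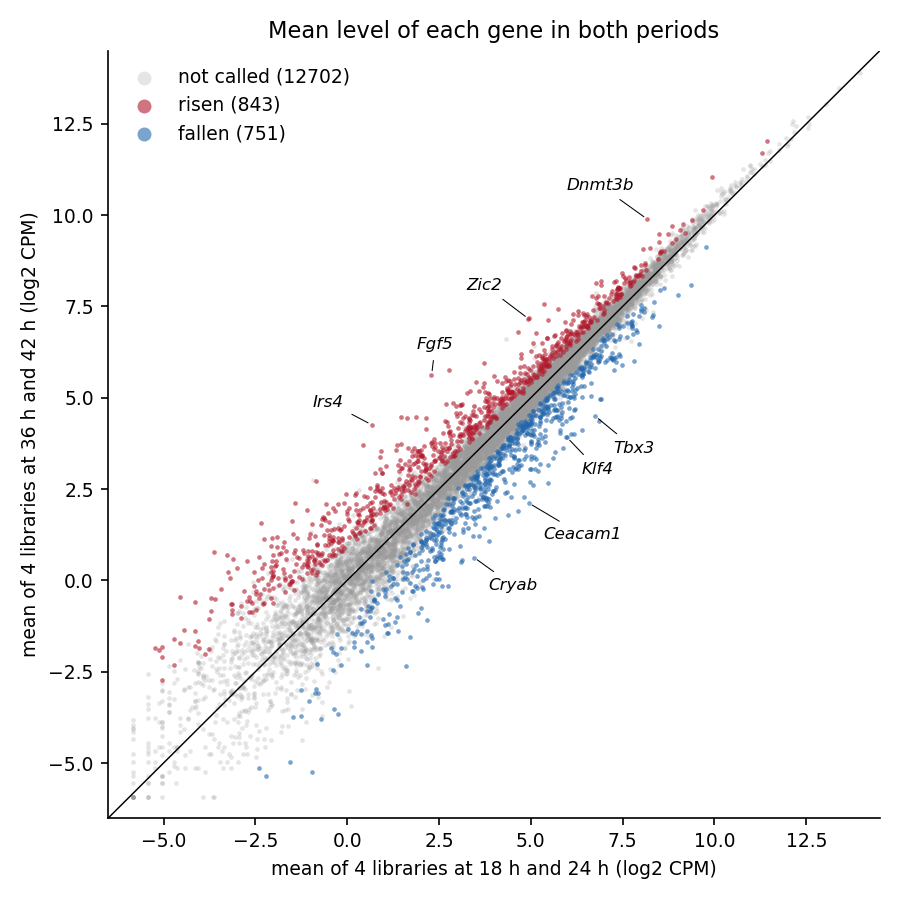
Mean level of each of the 14296 genes in the 4 libraries at 18 h and 24 h (horizontal axis, log2 CPM) and in the 4 libraries at 36 h and 42 h (vertical axis, log2 CPM). Red points are the 843 genes that rose, blue points the 751 that fell and grey points those not called; the line marks equal levels, and most genes lie close to it.

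The values of individual libraries were seldom mixed for the genes called. All 4 late values lay above all 4 early values for 831 of the 843 genes that rose, and below them for 742 of the 751 that fell. Over all genes tested these shares were 18.1% and 16.2%. The calls were made from these same values, so the separation follows in large part from the selection and is no separate support. Median rises were 1.01 in A and 1.04 in B, and median falls -0.96 in A and -1.10 in B. Asked whether the change itself differed between the cultures, limma called 0 genes (0%) at an adjusted p under 0.05, with 389 genes at an unadjusted p under 0.05, or 378 with precision weights. The fit of this difference had 4 residual degrees of freedom, and the drift within each period counted in it as error. It could therefore miss differences between the cultures, and the 0 is no evidence that they changed alike.

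Single steps of 6 h across the same stretch reached the threshold for few genes. The stretch was chosen because single steps show almost no change in it, so these low counts follow from the choice. A step also sets 2 libraries against 2, where each period has 4. From 18 to 24 h there were 11 calls (0.0769%), all rises, and with the cultures as a replicate block 24. From 24 to 30 h there were 7 (0.0490%), or 3 with the block. From 30 to 36 h limma called 0 (0%) and from 36 to 42 h 0 (0%), with 1391 and 1330 genes at an unadjusted p under 0.05; under the block the latter step gave 2. In all, 16 genes were called at a single step, and each of these was also called between the periods. Fgf5 and Zic2 were called at both of the earlier steps, though Fgf5 and Emp2 missed the threshold from 24 to 30 h with the block (adjusted p = 1.26e-04 for each). Fgf5 rose by 1.94 ± 0.18 (SE, adjusted p = 2.90e-07) from 18 to 24 h and by 1.32 ± 0.18 (adjusted p = 9.99e-05) from 24 to 30 h. The 3 falls were all between 24 and 30 h, in Jdp2 (-3.66 ± 0.40), Emp2 (-1.08 ± 0.14) and Cavin1 (-0.70 ± 0.09). These 3 are named because they were the only falls called at any step.

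The 30 h libraries, which were not used to call genes, lay between the period means. For the genes that rose the mean at 30 h had covered a median of 55.0% of the way from the early to the late mean, with quartiles of 42.0% and 68.9%, and 812 of 843 (96.3%) were between the means. Genes that fell had covered 47.3% (quartiles 35.0% and 60.4%), with 736 of 751 (98.0%) between. In culture A alone the medians were 58.0% and 46.9%, and in culture B alone 53.8% and 47.8%.

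Nor did the change within each period enter the contrast, since it cancels in the period mean. From 18 to 24 h 90.9% of the genes that rose between the periods were already rising, and 95.4% were still rising from 36 to 42 h, against 52.1% and 54.0% of all genes. Genes that fell between the periods were falling in 89.2% and 91.1% of cases, against 47.9% and 46.0% of all genes. Median steps of the genes that rose were 0.40, 0.32, 0.28 and 0.32 for the 4 steps from 18 to 42 h, and those of the genes that fell were -0.28, -0.35, -0.36 and -0.32. The steps were thus of like size throughout, and none of the 4 stood out.

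The wider course placed these genes differently on either side of the interval. The genes that rose were lower at 12 h than at 0 h, with a median of 0.03 at 0 h and -0.44 at 12 h relative to their 18 h and 24 h mean, and 410 of the 843 were lower at 0 h than in the early period. They went on to a median of 1.54 at 48 h and 1.88 at 72 h, and at 120 h were still 1.32 above. The genes that fell were 0.44 above their early mean at 0 h, reached -1.26 at 48 h, and by 120 h lay only -0.11 from it. By then 349 of the 751 (46.5%) were again above their early mean, whereas 158 of the 843 (18.7%) that had risen were again below theirs. From 42 to 48 h 83.6% of the genes that rose went on rising and 61.3% of those that fell went on falling. Of all genes 52.7% moved up and 47.3% down at this step. The 42 h libraries helped to choose the genes, so this step is not separate from the calls.

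**Figure D2:**
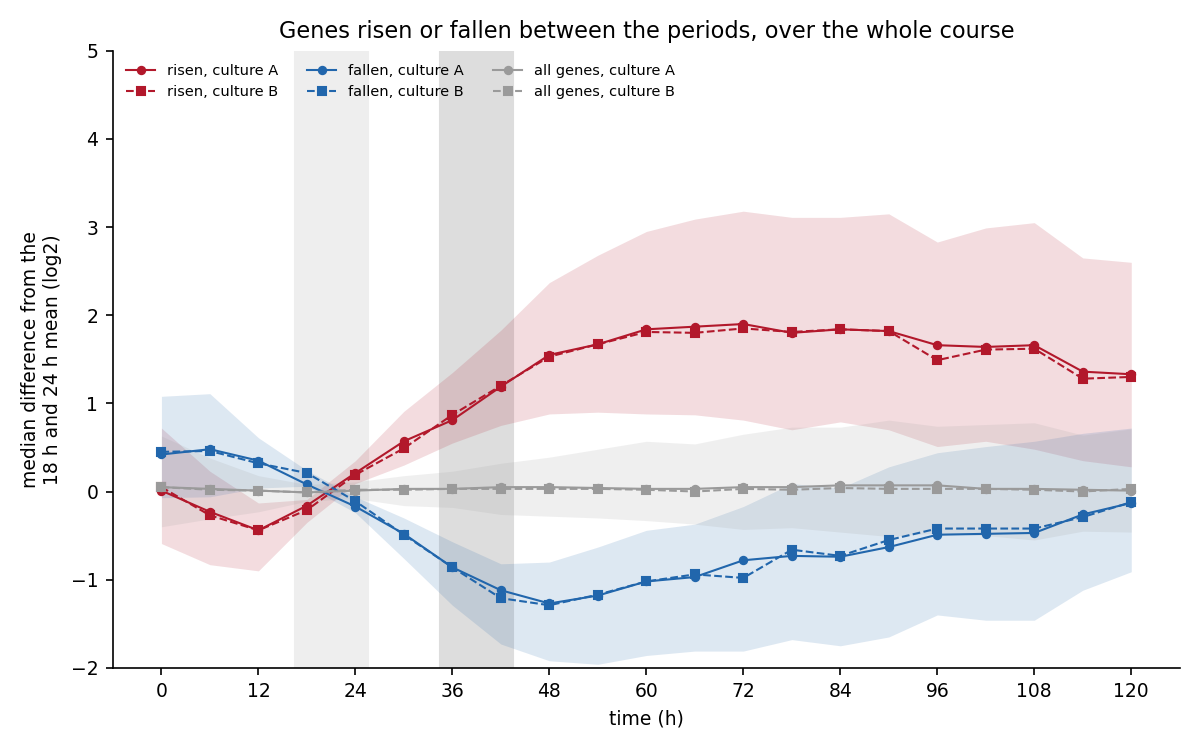
Median difference of the genes that rose (red), those that fell (blue) and all genes (grey) from their own mean at 18 h and 24 h (vertical axis, log2) at the 21 time points (horizontal axis, h), in culture A (circles) and culture B (squares), with bands from the lower to the upper quartile of the mean of both cultures. Grey stripes mark the periods compared, so the split of the red and blue lines between the stripes is what chose the genes; outside them the red line stays above 1 from 42 h to 120 h and the blue line returns towards 0.

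The largest rises included signalling molecules and cell-surface or matrix genes. They are given for called genes that averaged 2 log2 CPM or more over the 8 libraries, without overlap between periods. Several averaged less in the early period, among them Irs4 at 0.67, Fndc3c1 at 0.44 and Calcr at 0.9. Irs4, an adaptor of insulin receptor signalling, had 12.1 times its early level, a change of 3.60 ± 0.19 (SE, adjusted p = 2.49e-14). It was at -0.48 and -0.22 log2 CPM at 18 h (cultures A and B), 1.86 and 1.50 at 24 h, 4.02 and 4.20 at 36 h and 4.63 and 4.20 at 42 h. The late values were all above the early ones, and both cultures rose steeply within the early period. Next came Fgf5 (3.33), described below, and Fndc3c1, whose 4 early values of -0.54, -0.51, 1.53 and 1.27 were followed by 3.35, 3.16, 4.42 and 3.93. Zfp608 (3.01), Vrtn (2.98), the semaphorin Sema6a (2.81), the secreted protein Cthrc1 (2.60), the calcitonin receptor Calcr (2.47) and the hyaluronan synthase Has2 (2.35) also rose. For the chemokine Cxcl12, which signals through Cxcr4, values of 0.98 and 1.18 at 18 h, 2.68 and 2.71 at 24 h, 4.28 and 4.33 at 36 h and 4.70 and 4.63 at 42 h gave a change of 2.60 ± 0.13 (adjusted p = 7.62e-15). Its duplicates lay closer together than any step of 6 h.

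Among called genes that averaged 2 log2 CPM or more and had no overlap between periods, the largest falls included adhesion, stress and transport genes. Ceacam1, an immunoglobulin-type cell adhesion molecule, dropped to 1 part in 7.10 of its early level (-2.83 ± 0.23, adjusted p = 1.24e-10). It stood at 5.17 and 5.27 at 18 h, 4.65 and 4.68 at 24 h, 2.66 and 2.61 at 36 h and 2.03 and 1.17 at 42 h. The 42 h pair was the widest of these. Cryab, a small heat shock protein, went from 3.97 and 4.14 at 18 h to 0.06 and -0.20 at 42 h (-2.82 ± 0.20, adjusted p = 1.21e-11). Htra1, a secreted serine protease, fell by 2.79 on the log2 scale, Islr2 by 2.77 and the peptide transporter Slc15a1 by 2.77. Rapgef3, an exchange factor for Rap that cyclic AMP activates, fell by 2.52, the small GTPase Mras by 2.50, Emp1 by 2.45 and the cytochrome P450 gene Cyp2s1 by 2.39. For none of these large rises and falls did late values overlap early ones, as the rule that named the genes required.

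Naive pluripotency factors declined together. Of 19 measured, 11 fell (10 without 42 h B) and 0 rose, with a median change of -1.18. Klf4, a factor downstream of LIF, was at 6.21 and 6.35 log2 CPM at 18 h, 5.65 and 5.71 at 24 h, 4.32 and 4.25 at 36 h and 3.59 and 3.53 at 42 h, a fall of 2.06 ± 0.15 on the log2 scale (4.17-fold, adjusted p = 1.41e-11). The duplicates of Klf4 lay closer together than its steps between these times. Tbx3, a T-box factor of the naive circuit, fell by 2.24 ± 0.20 (adjusted p = 5.40e-10), from 6.85 and 7.16 at 18 h to 4.24 and 3.82 at 42 h. Prdm14, a repressor of differentiation genes, fell by 1.84, the nuclear receptor Esrrb by 1.53, Tfcp2l1 by 1.48, Nr5a2 by 1.48, Tcl1 by 1.92, the adhesion molecule Pecam1 by 1.42, Zfp42 by 1.18 and Nanog by 1.07. Klf5 fell by 1.27 (adjusted p = 1.84e-05), a call lost without 18 h B, 24 h B, 36 h A, 36 h B or 42 h B (adjusted p from 1.07e-04 to 3.97e-04). Klf2 changed by -1.15 ± 0.23, with an adjusted p of 2.53e-04 that missed the threshold and 6.17e-06 under the replicate block. Nr0b1 (-0.68, adjusted p = 0.00243) and the germ cell and naive marker Dppa3 (-0.39, adjusted p = 0.268) did not pass, and Dppa5a, at 0.04, was the only member above 0. Nanog and Dppa5a have close copies in the genome whose reads may be shared.

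**Figure D3:**
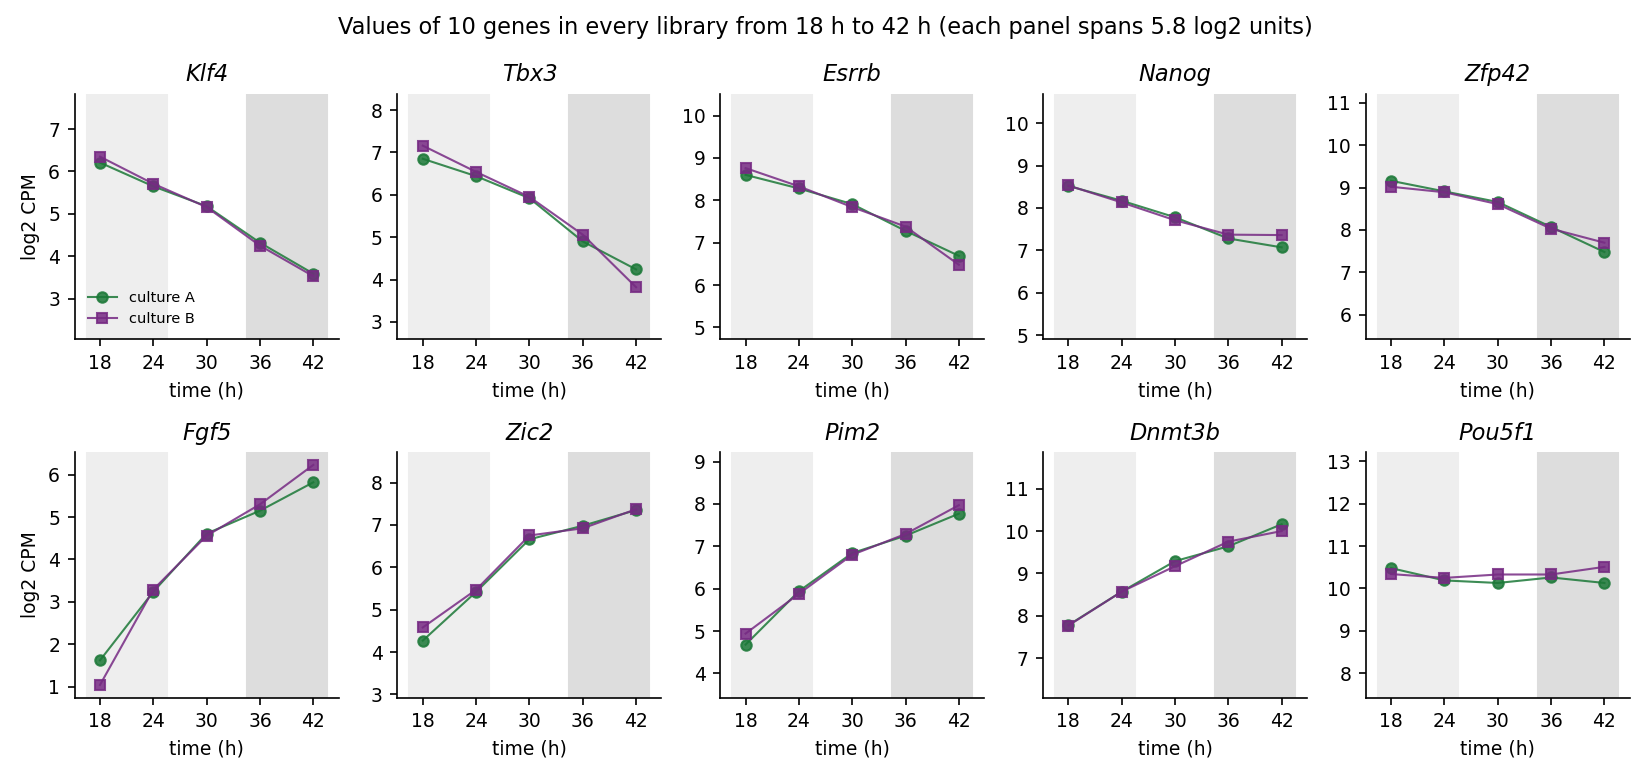
Log2 CPM (vertical axes) of 10 genes in culture A (circles) and culture B (squares) at 18, 24, 30, 36 and 42 h (horizontal axes), with the early period in light grey and the late in darker grey; each panel spans the same range. Klf4, Tbx3, Esrrb, Nanog and Zfp42 step down at each time in culture A, Fgf5, Zic2, Pim2 and Dnmt3b step up, and Pou5f1 stays between 10.13 and 10.51.

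The naive factors had not all been at their highest at the outset. Klf4 was at 8.43 at 0 h and had already come down to 6.74 by 12 h. Means of Esrrb were 8.83 initially, 9.43 after 6 h and 9.25 after 12 h, against an early mean of 8.49. Those of Zfp42 were 9.18, 10.07 and 9.48, against 9.0. Both were thus higher at 6 h than at 0 h and had come down before 18 h. At 120 h Klf4 was at 5.94 against an early mean of 5.98, Tfcp2l1 at 7.89 against 7.95 and Nanog at 8.43 against 8.34. Others were further from it, with Zfp42 at 7.63 against 9.0, Pecam1 at 3.83 against 5.17, Esrrb at 7.71 against 8.49 and Tbx3 at 5.96 against 6.75.

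General pluripotency genes did not share the decline. Of 14 measured, 1 rose and 1 fell (1 and 0 without 42 h B), with a median change of 0.07, or -0.04 when scaled by all counted reads. Pou5f1 (Oct4) was at 10.48 and 10.34 at 18 h and at 10.13 and 10.51 at 42 h, a change of -0.01 ± 0.12. Sox2, its partner, changed by -0.10 ± 0.07 (adjusted p = 0.32), with overlapping values. Lin28a, an RNA-binding protein that blocks let-7 maturation, rose by 0.58 ± 0.07 (adjusted p = 4.57e-07). Sall4 fell by 0.44 (adjusted p = 9.41e-05), but this call was lost on leaving out any of 7 libraries in turn, 42 h A being the exception (up to adjusted p = 0.00135 without 42 h B).

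LIF and STAT3 pathway genes gave 3 falls and 0 rises among 12, with a median of -0.26. The 2 targets that fell furthest were Bcl3 (-1.46 ± 0.12, adjusted p = 2.07e-10) and Socs3, the feedback inhibitor of the pathway (-1.08 ± 0.17, adjusted p = 7.73e-06). Socs3 lost the call without 18 h B, 24 h B or 36 h A (adjusted p from 1.39e-04 to 1.86e-04) and with precision weights (adjusted p = 3.14e-04). Most of its decline came earlier, from 5.12 at 0 h to 2.38 at 12 h, and it reached its late level by 30 h. Receptor and kinase genes were not called.

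Formative and primed epiblast genes moved the other way, 13 of 18 rising (12 without 42 h B), 1 falling and the median change being 1.40. Fgf5, the ligand that marks the postimplantation epiblast, gave the smallest adjusted p of the genes named (6.23e-17). It was at 1.62 and 1.04 log2 CPM at 18 h, 3.24 and 3.29 at 24 h, 5.15 and 5.30 at 36 h and 5.82 and 6.23 at 42 h, a rise of 3.33 ± 0.12 (10.1-fold). Every step from 18 to 42 h was upward in both cultures, after means of -0.82 at 0 h, -2.13 at 6 h and 0.01 at 12 h. Pim2, a serine/threonine kinase, rose from 4.68 and 4.94 at 18 h to 7.77 and 7.97 at 42 h (2.21 ± 0.09, adjusted p = 2.22e-16). Zic2, a zinc finger factor of the epiblast, rose from 4.27 and 4.58 to 7.35 and 7.37 (2.22 ± 0.09, adjusted p = 3.17e-16). Otx2, which directs Pou5f1 to new enhancers in formative cells, was at 5.82 and 5.94 at 18 h, 6.43 and 6.42 at 24 h, 7.13 and 7.21 at 36 h and 7.30 and 7.49 at 42 h, a rise of 1.13 ± 0.12 (adjusted p = 2.56e-08). Pou3f1 (Oct6) rose by 1.66 ± 0.13 and Lef1 by 2.14 ± 0.20. The fall was of Grhl3, an epithelial factor (-1.14, adjusted p = 5.24e-05 and 9.42e-04 without 42 h B). Not every gene of the group kept climbing after 42 h, since Pou3f1 went from 7.55 at 48 h to 6.15 at 72 h while Fgf5 was at 6.57 and 6.27.

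Among DNA methylation enzymes the de novo methyltransferases rose and a demethylating enzyme fell, 2 rises and 1 fall in 11. Dnmt3b was at 7.78 and 7.77 at 18 h, 8.57 and 8.57 at 24 h, 9.64 and 9.75 at 36 h and 10.16 (A) and 10 (B) at 42 h, or 1.72 ± 0.08 (3.29-fold, adjusted p = 1.91e-15). Dnmt3a rose by 0.99 ± 0.07 (adjusted p = 4.63e-12). Their cofactor Dnmt3l changed by 0.45 (adjusted p = 0.00137) and was not called. The maintenance enzyme Dnmt1 changed by 0.00 and Tet1 by 0.06. Tet2, which oxidises methylcytosine, fell by 1.52 ± 0.17 (adjusted p = 6.06e-08), with all 4 early values between 7.14 and 7.37 and late values of 6.10, 6.16, 5.85 and 4.89. Its fall lay mostly after 30 h, when it was at 7.06 and 6.63.

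The FGF and ERK pathway drives exit from the naive state. Of its 21 genes measured 6 rose, 4 of them ligands, and 0 fell (5 and 0 without 42 h B), with a median of 0.29. Besides Fgf5, Fgf8 rose by 1.81 ± 0.25 (adjusted p = 1.33e-06, and 3.81e-04 with precision weights), with 15 to 28 reads in the early and 49 to 127 in the late libraries. Fgf15 rose by 1.28 ± 0.14 (adjusted p = 5.74e-08), with 4.60 and 4.83 at 18 h and 6.32 and 6.57 at 42 h. Fgf4, the ligand made by naive cells, had a smaller rise of 0.47 ± 0.07 (adjusted p = 8.66e-06), lost without 24 h A, 36 h B or 42 h B (adjusted p from 1.04e-04 to 1.60e-04) and when scaled by all counted reads (adjusted p = 0.00141). The receptor Fgfr2 rose by 1.38 ± 0.12 (adjusted p = 4.43e-10), whereas Fgfr1 changed by 0.29 and was not called. Of the targets, Dusp4, a phosphatase that shuts off ERK, rose by 0.78 ± 0.09 (adjusted p = 4.71e-08), and Spry1 (0.51), Spry2 (0.18), Spry4 (-0.07), Dusp6 (0.38), Egr1 (0.21), Etv5 (0.07) and Etv4 (-1.18) did not pass.

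Nodal pathway genes gave 2 rises and 1 fall among 18, with a median of 0.10. The ligand Nodal changed by 0.14 ± 0.14 (adjusted p = 0.46), and its values in the periods overlapped. Lefty1, a feedback inhibitor, was at 5.90 and 5.98 at 18 h and 6.90 and 7.83 at 42 h. Its change of 1.05 ± 0.20 missed the threshold (adjusted p = 1.31e-04), and it passed under the replicate block (adjusted p = 3.49e-05). Leaving out 42 h A gave an adjusted p of 1.47e-05, and leaving out 42 h B a change of 0.81 with an adjusted p of 0.00257. Lefty2, at 7.83 in both cultures at 18 h, changed by -0.24 (adjusted p = 0.299). Skil, a repressor of Smads that the pathway induces, rose by 0.92, and Pcsk6, a protease that matures Nodal, fell by 0.82.

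In the BMP group 3 genes fell and 1 rose among 19 (3 and 0 without 42 h B), with a median of -0.11. Bmp4, the ligand that supports naive cells through the Id genes, went from 6.59 and 6.62 at 18 h to 5.73 and 5.81 at 24 h, 4.37 and 4.35 at 36 h and 3.82 and 3.52 at 42 h, a fall of 2.17 ± 0.19 on the log2 scale (4.51-fold, adjusted p = 6.29e-10). Its target Id1 was at 5.45 and 5.57 at 18 h and 3.54 and 3.53 at 36 h, a fall of 1.28 ± 0.11 (adjusted p = 2.65e-10), but the decline was over by 30 h, at 3.48 and 3.74, and values at 42 h (3.75 and 4.09) were higher. Smad6, an inhibitor of the pathway, fell by 1.29 (adjusted p = 8.22e-06), a call lost without 24 h B, 36 h B or 42 h A (adjusted p from 1.10e-04 to 2.10e-04) or with precision weights (adjusted p = 2.58e-04), and its periods overlapped. Id3 (-0.65) was not called. Id2 rose by 0.52 (adjusted p = 1.34e-05), and its 30 h values of 4.54 and 4.35 were no higher than those at 24 h (4.56 and 4.47). That call was lost without 18 h B, 24 h B, 36 h A or 42 h B (adjusted p from 1.86e-04 to 2.74e-04) and under scaling by all counted reads (adjusted p = 0.00119).

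Members of the Wnt pathway moved both ways, 8 up and 6 down among 35, with a median of 0.15, or 0.04 scaled by all counted reads. Lef1, a nuclear effector, went from 4.12 and 4.19 at 18 h to 7.02 and 6.86 at 42 h (2.14 ± 0.20, adjusted p = 2.19e-09). The receptors Fzd2 (1.42) and Fzd7 (0.72 ± 0.07, adjusted p = 6.53e-09) and the R-spondin receptor Lgr4 (0.73) rose, and Fzd5 (-0.74) and Fzd10 (-1.13) fell. Ligands also split, with Wnt7b falling by 2.25 ± 0.23 (adjusted p = 9.81e-09), with 26 to 78 reads in the early libraries and 8 to 13 in the late, and Wnt3 rising by 1.92 ± 0.30 (adjusted p = 9.48e-06), with 8 to 17 reads and then 39 to 71. The Wnt3 call was lost without 18 h B, 24 h B or 36 h B (adjusted p from 1.28e-04 to 1.68e-04) and with precision weights (adjusted p = 0.0384). The feedback targets Axin2 (-1.14, adjusted p = 1.30e-05) and Notum (-1.51, adjusted p = 5.48e-05) fell, as did the secreted antagonist Sfrp1 (-1.08, adjusted p = 1.86e-09), from 7.10 and 7.18 at 18 h to 5.99 and 5.65 at 42 h. Nkd2, also a feedback gene of the pathway, rose by 0.96 (adjusted p = 1.89e-06, and 6.23e-06 without 42 h B), and Nkd1 changed by 0.82 and was not called. The remaining rises were of Ctnnb1 (0.47) and Tcf7 (0.39), both lost without 42 h B (adjusted p = 5.10e-04 and 1.68e-04). Without 42 h B the count was 6 up and 3 down, Axin2, Notum and Fzd10 then missing the threshold (adjusted p = 2.64e-04, 3.49e-04 and 2.96e-04).

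**Figure D4:**
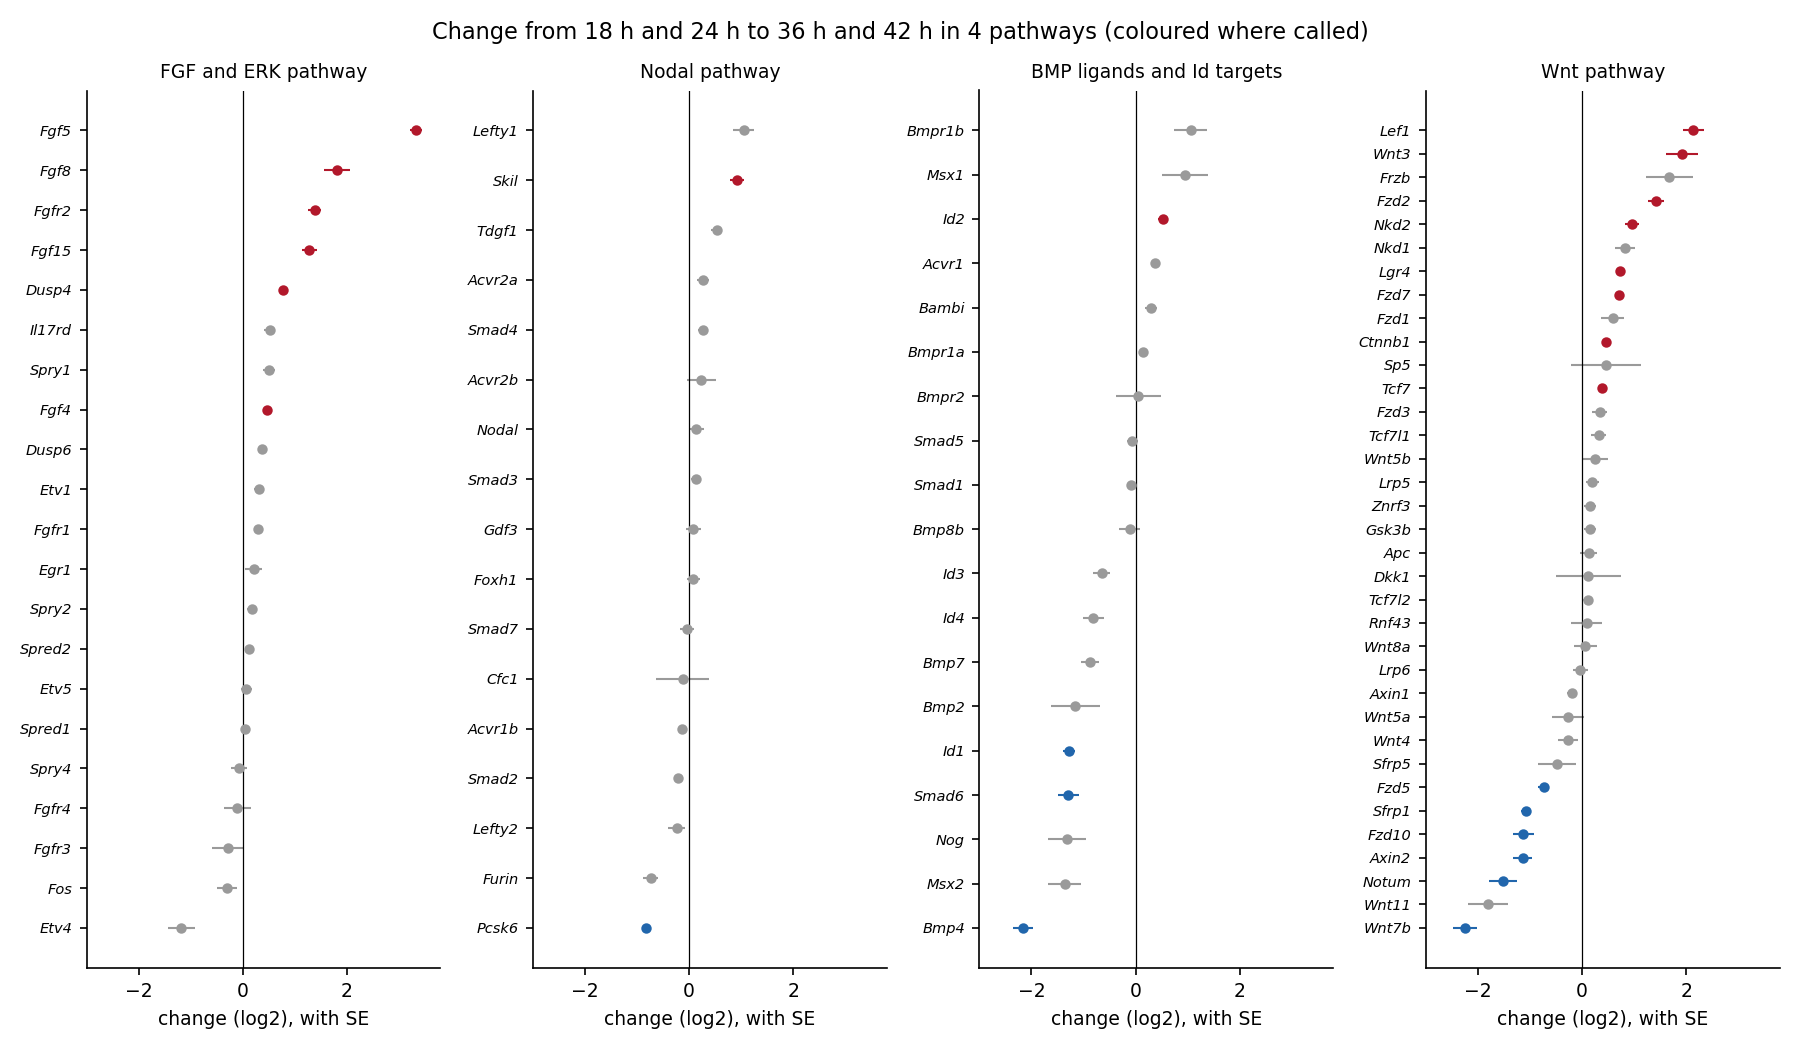
Change from the early to the late period (horizontal axes, log2, with bars of 1 SE from the limma fit) of the genes shown from 4 pathway lists, ordered by size. Red points rose and blue points fell at an adjusted p under 0.0001; the FGF list has 6 red and 0 blue points, and the Wnt list 8 red and 6 blue.

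Lineage marker lists are set here beside shares of 5.90% rises and 5.25% falls over all genes tested. Of the primitive streak genes 15.4% were called, all of them rises. Of 13 primitive streak genes, 2 rose (Fgf8 and Wnt3) and 0 fell, and 6 of the 13 were under 0 log2 CPM in all 8 libraries. T (brachyury) had 6 to 15 reads in the early and 5 to 7 in the late libraries (adjusted p = 0.0839), and Mixl1 18 to 28 and 19 to 44 (adjusted p = 0.612). Eomes stayed between 3.72 and 3.99, with a change of -0.07 ± 0.25 (adjusted p = 0.854). T was later at 3.61 at 72 h. Among 16 markers of primitive and visceral endoderm 5 fell and 2 rose, with a median of -0.80, and the summed level of the list was 9.90 to 10.08 log2 CPM early and 9.59 to 9.84 late. Gata6, which specifies this lineage, had 2 to 13 reads early and 2 to 6 late (adjusted p = 0.101), and Gata4 20 to 38 and 27 to 37. The 5 that fell were Sox7, Lama1, Col4a1, Col4a2 and Sparc, of which the last 4 also belong to the matrix list below. Sparc, a matrix glycoprotein, went from 8.14 and 8.11 at 18 h to 6.60 and 6.67 at 42 h (-1.10 ± 0.05, adjusted p = 1.00e-15), and the endocytic adaptor Dab2 rose by 1.49.

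Of 10 trophoblast markers 3 fell and 0 rose, the summed level going from 6.52 to 7.09 early to 5.55 to 5.85 late. Esx1 fell by 1.55 (adjusted p = 1.15e-05), a call lost without 18 h B, 24 h B, 36 h B or 42 h A (adjusted p from 1.67e-04 to 2.58e-04) and with precision weights (adjusted p = 3.05e-04). Tead4 fell by 1.96 ± 0.15 (adjusted p = 3.89e-11) and Krt8 by 1.37 ± 0.09 (adjusted p = 1.69e-12), while Cdx2 had at most 25 reads in any of the 8 libraries. Neuroectoderm markers gave 2 falls in 8, the neuronal tubulin Tubb3 (-1.27) and nestin, Nes (-0.82), with Pax3, Pax6 and Zic1 under 0 log2 CPM in all 8 libraries, Pax3 having a library at 0 reads. The median change of this list was 0.31, and 4 of the 8 changes were above 0. Sox1 changed by 0.85 (adjusted p = 8.40e-04) and Neurod1 by 0.83 (adjusted p = 5.05e-04), and neither was called. Of 11 fibroblast markers 1 rose and 1 fell, and the summed level was 4.67 to 5.04 early and 4.28 to 4.51 late. The rise was of Dcn, which had 1, 0, 0 and 5 reads in the early and 9, 25, 46 and 22 in the late libraries, and the fall of Pdgfrb (-1.07). Whether mixed cell types had a part in the changes above was not tested.

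Matrix genes fell more often than they rose. Of 24 collagens, laminins and integrins 8 fell (7 without 42 h B) and 2 rose, with a median of -0.32. Basement membrane collagen Col4a2 was at 5.18 and 5.28 at 18 h and 5.11 and 5.31 at 24 h, then 4.14 and 4.12 at 36 h and 3.53 and 3.0 at 42 h (-1.52 ± 0.10, adjusted p = 5.44e-12). Its early values were flat within the spread of the duplicates. Itga5, the fibronectin receptor subunit, fell by 0.86 ± 0.07 (adjusted p = 1.23e-10). Lamb1 (0.62) and Itgb1 (0.45) were the 2 that rose.

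In a list of 21 cadherins and epithelial-mesenchymal regulators there were 5 rises and 1 fall, or 4 rises and 1 fall without 42 h B. Esrp1, an epithelial splicing factor, was at 3.67 and 3.79 at 18 h, 4.31 and 4.22 at 24 h, 5.40 and 5.44 at 36 h and 5.86 and 5.68 at 42 h (1.60 ± 0.07, 3.02-fold, adjusted p = 2.92e-16). The tight junction claudins Cldn6 (0.96) and Cldn7 (1.07), occludin, Ocln (0.85), and Crb3 (0.89, adjusted p = 1.47e-04 without 42 h B) also rose, and the fall was of the keratin Krt8. E-cadherin, Cdh1, changed by 0.36 ± 0.07 (adjusted p = 2.71e-04) and N-cadherin, Cdh2, by 1.14 ± 0.24 (adjusted p = 3.79e-04), neither of which passed although neither had overlapping periods. Of 18 actin and YAP or SRF target genes 3 rose and 2 fell, but without 42 h B 2 rose and 1 fell, and with precision weights 2 rose and 0 fell. The smooth muscle calponin Cnn1 rose by 2.21 ± 0.19 (adjusted p = 6.51e-10) and the tropomyosin Tpm1 by 0.71 ± 0.07 (adjusted p = 8.46e-09).

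Glycolysis and hypoxia genes gave 9 rises and 5 falls (9 and 4 without 42 h B) among 29, with a median of 0.28 and of 0.17 scaled by all counted reads. Bnip3, a mitophagy gene that hypoxia induces, was at 4.83 and 4.56 at 18 h, 5.64 and 5.53 at 24 h, 6.58 and 6.63 at 36 h and 6.69 and 7.24 at 42 h (1.64 ± 0.13, adjusted p = 4.60e-11). This was a return, since it had been at 7.11 at 0 h and 3.43 at 12 h. Egln3, an oxygen-sensing prolyl hydroxylase, likewise was at 6.72 at 0 h, 2.78 at 12 h, 3.84 early and 5.12 late (1.29 ± 0.09, adjusted p = 1.21e-11). The lactate exporter Slc16a3 (1.29), lactate dehydrogenase Ldha (1.11), Tpi1 (0.86), Pgk1 (0.85), Pfkl (0.64) and Pkm (0.62) rose, and Ndrg1 (-1.58), Vegfa (-1.07), the hexokinase Hk1 (-0.76) and Pfkp (-0.50) fell. Isoenzymes of a step thus moved apart, Pfkl up and Pfkp down.

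Lists of the cell cycle, biosynthesis and stress are set here beside the share of 11.1% called over all genes tested. The replication and mitosis, G1, cholesterol and heat shock lists lay below this share, the first with no call. With all 8 libraries the p53 list and the ATF4 and amino acid list lay above it. These differences in share were not tested. Of 38 DNA replication and mitosis genes limma called 0, with or without precision weights, and 10 had an unadjusted p under 0.05. Their changes lay between -0.19 and 0.44 with a median of 0.05, or -0.05 scaled by all counted reads. Of 21 G1 genes 2 fell, E2f2 (-1.35 ± 0.11, adjusted p = 1.21e-10) and cyclin D3, Ccnd3 (-1.04 ± 0.09, adjusted p = 9.66e-10). Ccnd3 was at 7.99 and 8.20 at 18 h and 6.51 and 6.80 at 42 h. Cholesterol synthesis genes gave 1 rise and 1 fall in 23 (1 and 0 without 42 h B), ATF4 and amino acid supply genes 3 rises and 1 fall in 24 (2 and 0 without 42 h B), p53 targets 3 rises and 1 fall in 21, and heat shock proteins 1 fall in 19, the fall being that of Cryab. Pmaip1 (Noxa), a p53 target that promotes apoptosis, rose by 1.19 ± 0.08 (adjusted p = 1.28e-11), and the stress gene Ddit4 by 1.06 ± 0.12 (adjusted p = 5.40e-08). Of 7 metallothionein and zinc genes limma called 0 (3 at an unadjusted p under 0.05), and of 2 genes of the 2-cell-stage-like state 0 (1 at an unadjusted p under 0.05), in both cases also with precision weights.

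Cytosolic ribosomal protein genes lay on the upper side of 0 and depended on the library that stood apart. All 71 had a positive change, with a median of 0.35, 53 had an unadjusted p under 0.05, and 1 was called. Over all 14296 genes 7755 had a positive change and 6471 an unadjusted p under 0.05. Without 42 h B the median was 0.16 and 0 were called, and scaled by all counted reads it was 0.24 with 0 called. The gene called was Rps27 (1.07 ± 0.20, adjusted p = 8.73e-05), at 7.04 in culture A and 8.02 in culture B at 42 h, with an adjusted p of 0.00175 without 42 h B. Its call was lost on leaving out any library of the periods other than 42 h A (adjusted p from 2.28e-04 to 0.00175). It was also lost with precision weights (adjusted p = 1.06e-04) and with libraries centred on the median (adjusted p = 1.17e-04). These genes have many processed copies in the genome whose reads may be shared. The part in this of the difference by exon length at 42 h was not tested.

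Noncoding genes, taken as antisense, lincRNA and processed transcript biotypes, gave 12 rises and 13 falls among 565 (4.42% called), against 11.8% of the 13176 protein-coding genes. Their median level was 0.62 log2 CPM, where that of protein-coding genes was 4.48, so that fewer reads stood behind each. In a list of 18 long noncoding RNAs 2 rose and 1 fell (2 and 0 without 42 h B). Miat rose by 1.59 ± 0.22 (adjusted p = 2.03e-06) and Rian, of the imprinted Dlk1 cluster, by 0.68 ± 0.10 (adjusted p = 5.48e-06, and 3.02e-04 scaled by all counted reads). Neat1, the scaffold of paraspeckles, fell by 0.61 (adjusted p = 6.07e-06), with 5.04 and 5.03 at 30 h, above its early mean of 4.90. Its call was lost without 18 h B, 24 h B, 36 h A or 42 h B (adjusted p from 1.23e-04 to 1.56e-04). Malat1 changed by -0.67 ± 0.21 (adjusted p = 0.012) and was at 7.62 and 8.27 in the duplicates at 18 h.

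Of 20 imprinted genes 4 rose and 1 fell, Grb10, a growth factor receptor adaptor, rising by 1.05 ± 0.09 (adjusted p = 4.59e-10) and Impact by 0.67 ± 0.07 (adjusted p = 4.65e-08). Under scaling by all counted reads the count was 2 and 2, and without 42 h B 4 and 0. Among 12 germline genes 5 rose and 1 fell, with a median of 0.79. Without 42 h B 3 rose and 1 fell, Sycp3 and Mael then missing the threshold (adjusted p = 2.52e-04 for each). Tdrd1, a component of the piRNA pathway, rose from 1.37 and 1.45 at 18 h to 2.72 and 2.66 at 42 h (1.03 ± 0.13, adjusted p = 3.89e-07), and the bromodomain gene Brdt by 1.29 (adjusted p = 1.61e-06). Stag3, a meiotic cohesin subunit, fell by 0.78 ± 0.11 (adjusted p = 2.81e-06).

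**Figure D5:**
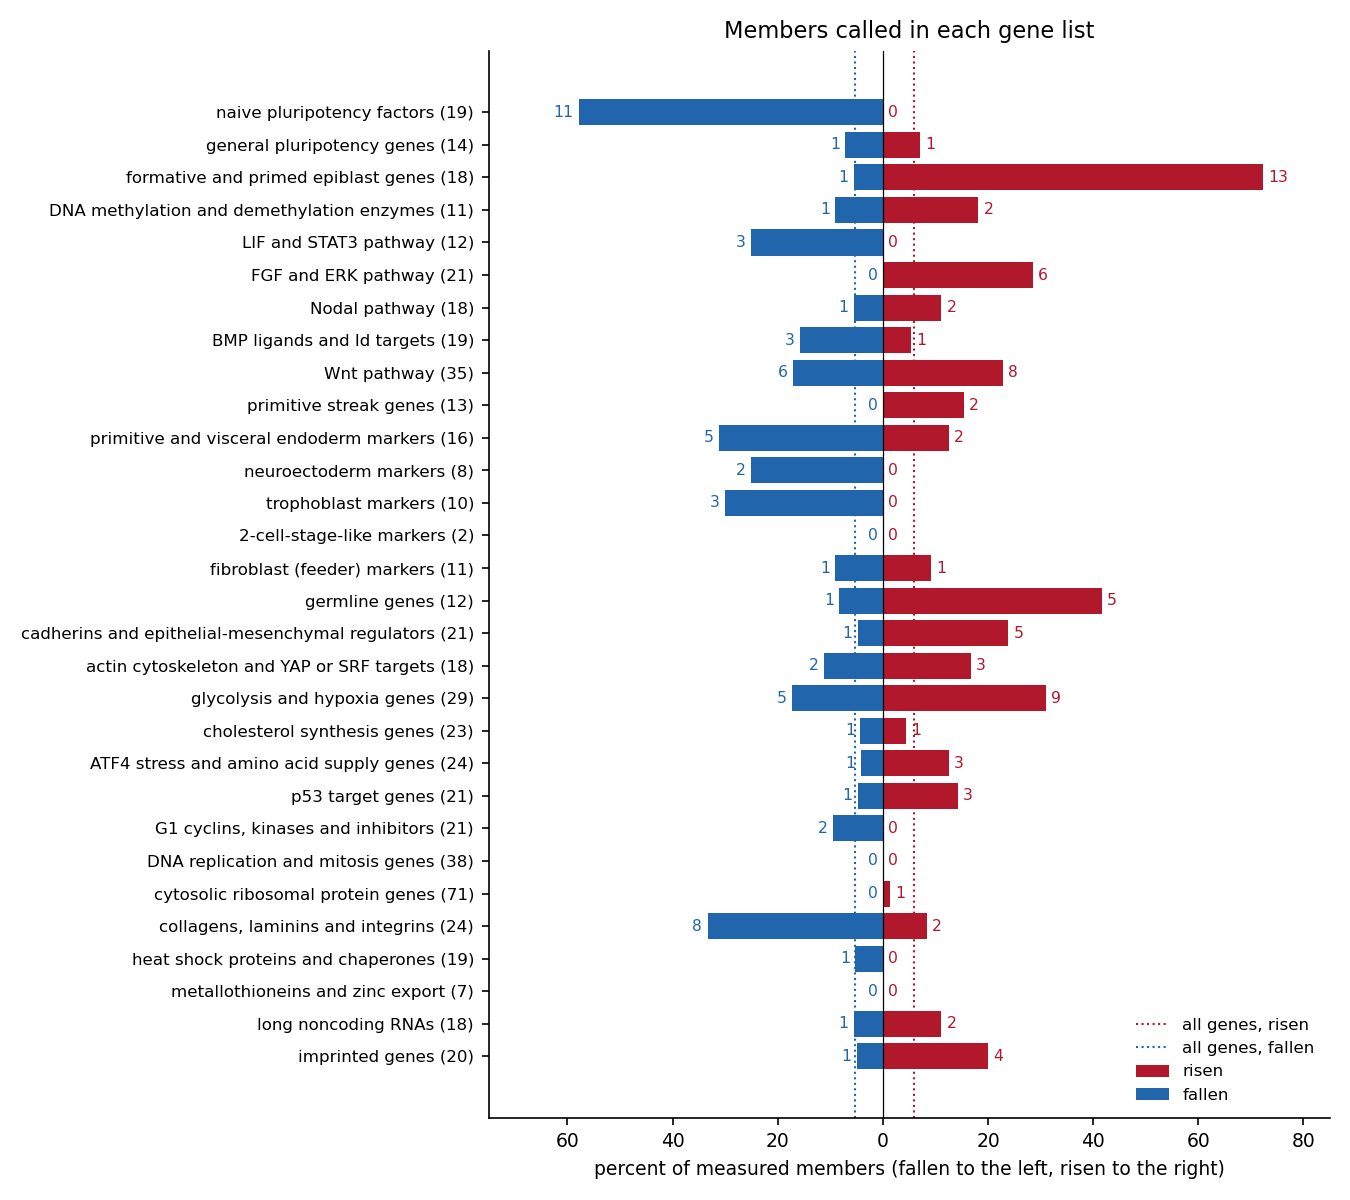
Share of the measured members of each of 30 gene lists that rose (red, to the right) or fell (blue, to the left) between the periods, in percent, with the number of genes at each bar and the number measured after each name. Dotted lines mark the shares over all genes (5.90% and 5.25%); the 13 rises among 18 formative genes and the 11 falls among 19 naive factors extend furthest.

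Genes took different parts of the interval for their change. Those nearly done by 30 h included Id1 (109.3% of the way from the early to the late mean) and Fgfr2 (92.8%). At 30 h Fgfr2 was at 3.07 and 3.17, and at 42 h at 3.38 and 3.21. Those that had hardly begun included Stag3 (2.70%), with 6.18 and 6.08 at 30 h against 6.15 in the early mean, along with Id2 (-17.1%) and Neat1 (-20.7%), whose 30 h means lay on the other side of the early mean. Sall4 (19.1%), Miat (22.0%), Col4a1 (23.7%), Fgf8 (24.0%) and Tet2 (28.1%) came next. Naive factors lay in between, with Zfp42 at 30.4%, Prdm14 at 32.4%, Tbx3 at 36.0%, Klf4 at 39.3%, Esrrb at 40.2%, Tfcp2l1 at 42.1% and Nanog at 55.5%. Formative genes were further along, with Pou3f1 at 56.4%, Pim2 at 66.1%, Fgf5 at 68.8%, Lef1 at 75.2%, Otx2 at 77.9% and Zic2 at 79.5%. These values carry the error of 2 libraries at 30 h and were not tested against each other.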

How the data were processed

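Polyadenylated RNA of 42 libraries (21 time points, 2 cultures) was measured by strand-specific sequencing. Per the series' design text and the submitters' processing notes, the authors used Trim Galore for trimming, TopHat2 for alignment (mm10) and HTSeq for counting on GENCODE vM2, normalized with edgeR and transformed with voom of limma; other versions and the strand setting of the counting are not given in the sources used here. The deposited values, 1 file per library, are log2 CPM with an offset of 0.5 reads, so that fold changes of genes with few reads depend on the offset. They gave back whole reads to within 2.91e-08 of a read; these reads were used for depth, voom weights and scaling alternatives. The p-values measure the spread between the cultures and libraries together.

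Tests used limma 3.58.1 in R 4.3.3 (lmFit, eBayes with trend) on all 42 libraries with a factor of 21 time points; the contrast is the mean of 36 h and 42 h minus that of 18 h and 24 h, with Benjamini-Hochberg adjustment over 14296 genes and no block, and adjusted p under 0.0001 is called a rise or fall. Culture differences used the 8 libraries with period, culture and their interaction. The letters A and B mark 2 parallel courses in the labels; residuals of libraries with the same letter correlated by 0.0795 on average (210 pairs of time points), and by 0.11 among 18, 24, 36 and 42 h (6 pairs, from 1.57e-04 to 0.289). Gene coordinates and biotypes came from GENCODE vM21 (GRCm38), in which 14177 identifiers were found and 119 were not. Named genes are the 10 largest rises and falls called that averaged 2 log2 CPM or more and had no overlap between periods, up to 4 called members of each of 30 lists (the best expressed where none was called) and 35 chosen genes, of which Sox17 is not among the genes analysed here; other list members are named where a count is described, and some are not reported here. Members, lists and named genes were chosen with earlier results of these data known. Lists share genes and were given no test of their own. Scripts were tested on simulated data. Python 3.11.15, numpy 2.4.6, pandas 2.3.3 and matplotlib 3.10.9 were used.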

Additional observations from a re-analysis of the deposited data

Results flagged for a closer look

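In each period the 4 values of the 125 named genes were searched for a library far from the other 3 (by Dixon's ratio of the gap to the range), 250 groups in all. Chance alone would give such a gap in about 1 group in 20 only if the 4 values had no drift between them. Each group joined the duplicates of an earlier and a later time, and many genes drifted between these. Such drift parts the values into pairs and can hide a lone library, so that rate does not apply here. The search found 4, each in a different library. This number cannot show whether the libraries were free of outliers. Bnip3 was highest in 42 h B (7.24 log2 CPM), Dppa3 lowest in 42 h A (-1.01), Lefty2 highest in 24 h B (7.89) and Wnt7b highest in 36 h A (-1.23). The change between the periods had opposite signs in cultures A and B for 3 of the 125, none of them called: Mixl1 (0.75 and -0.19), Mt2 (-0.22 and 0.38) and Pou5f1 (-0.14 and 0.13).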

How the results depend on the processing

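Of 104 named genes that were called, 85 were also called on leaving out each of the 8 libraries in turn, 88 under every scaling, weighting, filter, block and slope that was run on the 42 libraries, and 0 with the 8 libraries alone, with or without the replicate block; none changed sign in any alternative, though 4 of the 21 that were not called did. The count of 1594 (843 up, 751 down) became 0 (0 and 0) with the 8 libraries alone and 0 (0 and 0) with these and a replicate block, 5338 (2953 and 2385) at an adjusted p under 0.05, and 822 (427 and 395) when 2-fold was also required. Scaling by all counted reads left 560 rises. Taking 36 h against 18 h alone gave 707 (392 and 315), 42 h against 24 h 625 (297 and 328), and 36 h against 24 h 115 (57 and 58). Leaving out 1 library gave 1062 to 1434 calls, 580 to 778 rises and 473 to 656 falls; the count fell by more than 1.5 times without 24 h B (1062) and that of falls without 18 h B (473) or 24 h B (482). With the replicate block on all 42 libraries 1870 genes were called, 1593 of them in both fits; it added Klf2 and Lefty1 and lost no named gene. Steps became 24, 3 and 2 (18 to 24, 24 to 30 and 36 to 42 h) with the block and 341, 125, 64 and 77 at an adjusted p under 0.05. The cultures' difference stayed at 0 genes in its 10 alternatives, each of which also counted the drift within periods as error. At 30 h the genes that rose were at 58.0% of the way without 30 h B and 53.8% without 30 h A. In single cultures (chosen after seeing the data, like every alternative for lists and for 30 h) the genes moving the called way were 89.1% and 89.6% (18 to 24 h, rises), 86.2% to 88.3% (falls), 84.9% to 93.1% (36 to 42 h, rises) and 84.7% to 85.8% (falls). The causes of these shifts were not tested. Of 1391 genes that changed at least 2-fold, 569 were not called, at a median level of -1.12 log2 CPM where called genes had 3.51.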
